A study of Rattus norvegicus with 29 samples.

Results

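In cultured rat kidney tubule cells, 142 of 28420 measured transcripts responded in opposite directions to acetaminophen and gentamicin after 24 h while their TPM under TCDD stayed close to control. TPM is a transcript's share of a library scaled to a fixed total and is corrected for transcript length. The members were chosen on L, the log2 ratio of the mean TPM plus 1 of treated cultures to that of the 24 h controls. A member had a mean of 1 to 500 TPM over the 5 control libraries, an L of at least 0.8 in size and of opposite sign for acetaminophen and gentamicin, and an L for TCDD between -0.5 and 0.5. The rule would have kept the 200 transcripts with the largest gap between the compounds, but only 142 met it, so all were kept. Of these, 101 were higher with acetaminophen and lower with gentamicin (the acetaminophen-high set), and 41 were lower with acetaminophen and higher with gentamicin (the gentamicin-high set). The 24 h libraries of control, acetaminophen, gentamicin and TCDD chose the members. Values and calls from comparisons among those libraries are therefore a description and not a test.

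The proximal tubule is the first segment of the renal tubule, where filtered solutes are reabsorbed and many drugs are taken up and metabolised. Acetaminophen is an analgesic that, in excess, is oxidised to a reactive metabolite that depletes glutathione. Gentamicin is an aminoglycoside antibiotic that proximal tubule cells take up by endocytosis and that accumulates in their lysosomes. TCDD (2,3,7,8-tetrachlorodibenzodioxin) binds the aryl hydrocarbon receptor, and trichloroethylene is an industrial solvent whose conjugated metabolites are known to be toxic to the kidney.

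The study sequenced RNA of proximal tubule epithelial cells in primary culture from rat kidney, left as controls or exposed to acetaminophen, gentamicin, TCDD or trichloroethylene, each for 6 h or 24 h. There were 3 libraries in 9 of the 10 groups and 2 in the 6 h control, and the 29 libraries held between 8243698 and 11446612 estimated counts. The sources used here do not state doses, vehicles, the rats' strain and age, or the number of animals or cultures behind the replicates. The p-values therefore rest on variation among libraries, which may be technical. The identifiers are Ensembl transcript identifiers that the files do not pair with gene names. The members are therefore described as sets and by 4 transcripts named by identifier, and the labelled cell type was not checked against its markers. In such bulk RNA, fewer cells of a type and less RNA per cell cannot be told apart.

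Before the limit on TCDD was applied, 371 transcripts had opposite responses of the required size, 271 in the direction of the acetaminophen-high set and 100 in the other. The TCDD limit left out 173 because TCDD was lower and 56 because it was higher. The member just inside the limit on the compounds had L of -0.80 with acetaminophen and 1.17 with gentamicin, and the transcript just outside had 1.44 and -0.80. Around the TCDD limit, the last member had an L of -0.499 with TCDD and the first transcript left out -0.502. Nothing in the values separates members from their neighbours at these limits.

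The sizes of the sets differed between scales. Over all 13730 transcripts with a control mean of 1 to 500 TPM, the median L at 24 h was 0.10 for acetaminophen, -0.22 for gentamicin and -0.40 for TCDD. The acetaminophen-high set held 71.1% of the members by the rule as given. It held 56% of the 116 transcripts chosen on TMM-scaled CPM (65 and 51), a scale that sets the bulk of transcripts as unchanged. With each compound's L centred on its median, it held 45.1% of 102 transcripts (46 and 56), an alternative chosen after seeing the data. Of the 142 members, 54 were also chosen on TMM-scaled counts (38% of the members and 46.6% of that list) and 43 with centred L (30.3% and 42.2%).

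**Figure D1:**
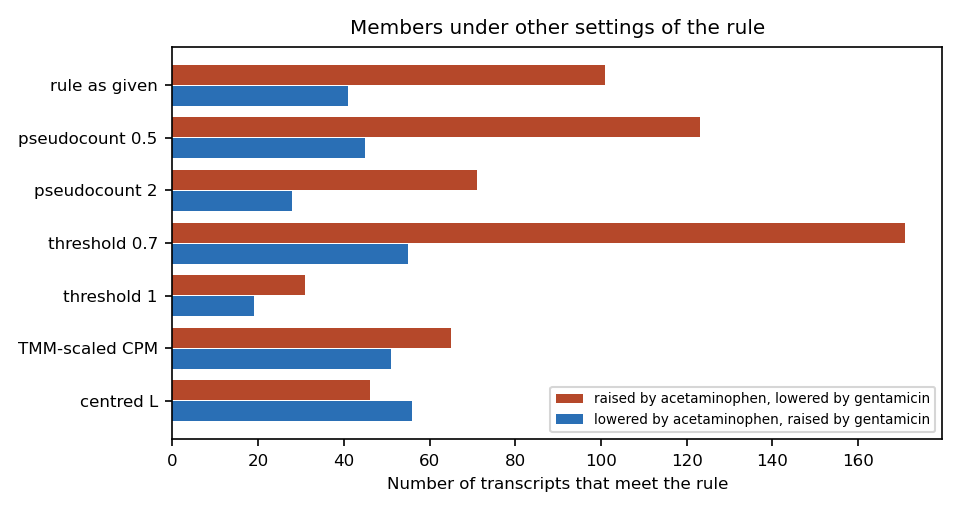
Number of transcripts (horizontal axis) that met the rule in each direction, for the rule as given and for other pseudocounts, thresholds and scales (vertical axis). The acetaminophen-high set is the larger with 101 against 41 by the rule as given, and the smaller with 46 against 56 after centring.

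The rule gave the sets a common pattern at 24 h. In the acetaminophen-high set, the median member had 12.2 TPM in the 24 h controls, 27.9 TPM with acetaminophen and 5.65 TPM with gentamicin. Its L ran from 0.80 to 2.57 with acetaminophen (median 1.13) and from -3.11 to -0.81 with gentamicin (median -0.99). Members of the gentamicin-high set had medians of 9.14 TPM in controls, 3.13 TPM with acetaminophen and 31.6 TPM with gentamicin. There L ran from -2.41 to -0.80 with acetaminophen (median -1.10) and from 0.81 to 5.12 with gentamicin (median 1.25).

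The rule chose on acetaminophen, gentamicin and TCDD at 24 h, so the ranks of the groups are partly its result and are a description. Over the 10 groups, acetaminophen at 24 h had the highest mean in 80 of the 101 acetaminophen-high members, and acetaminophen at 6 h in the other 21. Gentamicin at 24 h was the lowest group in 96 of the 101. In the gentamicin-high set, gentamicin at 24 h was the highest group for 38 of 41 members. The lowest group there was divided between acetaminophen at 24 h (19 members) and at 6 h (17 members), with trichloroethylene lowest for 3 members at 24 h and 1 at 6 h, and the 6 h control for 1.

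For each library, the median over the members of the log2 ratio of TPM + 1 to the mean of the controls of the same time was taken. In the acetaminophen-high set it ran from 0.72 to 0.82 over the 3 acetaminophen libraries at 6 h and from 1.06 to 1.23 at 24 h. With gentamicin it ran from -0.19 to -0.06 at 6 h and from -1.15 to -0.98 at 24 h. The gentamicin-high values were -0.97 to -0.83 and -1.17 to -1.07 with acetaminophen, and 0.23 to 0.35 and 1.20 to 1.27 with gentamicin. The acetaminophen libraries of 6 h were thus already well apart from their controls (-0.01 to 0.01), whereas those of gentamicin lay much nearer to them. These values are not centred. Over all transcripts with a control mean of 1 to 500 TPM, the median L at 6 h was -0.09 for acetaminophen and 0.11 for gentamicin. The TCDD libraries at 24 h, which the rule used, spread more widely, from -0.22 to 0.17 in the acetaminophen-high set and from -0.16 to 0.21 in the other.

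**Figure D2:**
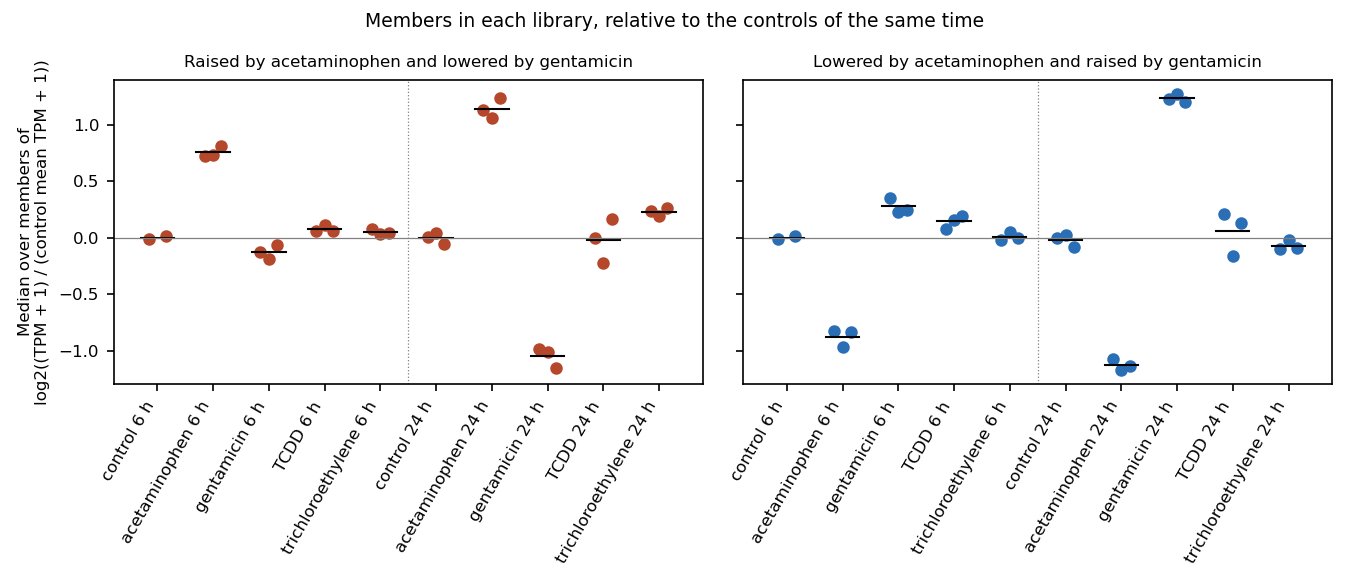
Each point is 1 library: the median over the 101 (left) or 41 (right) members of the log2 ratio of TPM + 1 to the control mean of the same time, with lines at group means. Acetaminophen and gentamicin lie on opposite sides of 0 at both times, with gentamicin at 6 h between -0.19 and -0.06 on the left and between 0.23 and 0.35 on the right. Values are not centred on the median of all transcripts, which was 0.11 for gentamicin at 6 h.

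The rule named 4 transcripts, 2 of each set: those with at least 10 estimated counts in every library and the largest response to the weaker of the 2 compounds at 24 h. Their levels are given by library, and their log2 changes come from a count model fitted over all 15990 transcripts that passed a filter on low counts (edgeR, Benjamini-Hochberg adjusted over all of them, called under 0.05).

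ENSRNOT00000070928, a transcript of 402 bases, belongs to the acetaminophen-high set. At 24 h its controls were at 66.6, 98.3 and 58.1 TPM, the acetaminophen libraries at 428, 379 and 528 TPM, and the gentamicin libraries at 28.4, 19.9 and 16.7 TPM. The 3 groups did not overlap. At 6 h the controls were at 108 and 87 TPM, acetaminophen at 133, 140 and 180 TPM, and gentamicin at 60.7, 64.1 and 73.6 TPM, so that the same order held without overlap. Acetaminophen at 6 h raised it by 0.77 ± 0.19 on the log2 scale (SE, edgeR adjusted p = 0.00124, 3 of 3 libraries above both controls). Gentamicin at 6 h lowered it, the log2 value being -0.62 ± 0.19 (SE, 3 of 3 below, edgeR adjusted p = 0.0322). That second call was lost without control replicate 2 (-0.43, adjusted p = 0.376) and without gentamicin replicate 1, 2 or 3 (-0.60, -0.62 and -0.66). It was also lost in limma's test on log2(TPM + 1) (-0.55, adjusted p = 0.0891). Compared directly at 6 h, acetaminophen was 1.39 ± 0.17 above gentamicin (edgeR adjusted p = 1.6e-07).

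The other acetaminophen-high transcript, ENSRNOT00000026607 (1506 bases), was at 9.82, 9.78 and 8.02 TPM in the 24 h controls. Acetaminophen at 24 h had 25.8, 24 and 26.6 TPM and gentamicin 2.51, 3.48 and 2.3 TPM, again without overlap. At 6 h the controls had 12.1 and 10.8 TPM and the acetaminophen libraries 18, 19 and 17.8 TPM. Gentamicin at 6 h gave 10.1, 10.7 and 11.1 TPM, of which 1 lay within the range of the controls. The change with acetaminophen at 6 h was 0.73 ± 0.15 (SE, edgeR adjusted p = 0.00015, 3 of 3 libraries above the controls). With gentamicin it was -0.22 ± 0.15 (edgeR adjusted p = 0.375), and the direct difference between the compounds was 0.96 ± 0.13 (adjusted p = 7.7e-07).

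Of the gentamicin-high set, ENSRNOT00000071897 (1020 bases) had 19.9, 23.9 and 26.5 TPM in the 24 h controls. Acetaminophen at 24 h had 5.7, 8.52 and 6.41 TPM, and gentamicin 74.1, 58 and 71.5 TPM. With acetaminophen it was already low at 6 h, at 6.1, 8.6 and 8.72 TPM beside 24.9 and 25.4 TPM in controls. That change was -1.63 ± 0.24 (SE, edgeR adjusted p = 3.1e-06, 3 of 3 libraries below the controls). Gentamicin at 6 h, at 26.7, 28.4 and 23.3 TPM, lay on both sides of the controls, with a log2 change of -0.06 ± 0.22 (edgeR adjusted p = 0.916). The 2 compounds differed at 6 h by -1.57 ± 0.22 (adjusted p = 1.3e-06). This transcript therefore met acetaminophen's 24 h direction at 6 h, and a change with gentamicin was not detectable then.

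ENSRNOT00000048044 (1297 bases), also of the gentamicin-high set, had 23.4, 17.9 and 14.5 TPM in the 24 h controls. It had 6.05, 3.52 and 7.94 TPM with acetaminophen and 45.7, 49.2 and 52.9 TPM with gentamicin. Trichloroethylene at 24 h had the lowest mean of the 10 groups, with 4.15, 3.67 and 1.84 TPM, which overlapped acetaminophen. At 6 h the controls had 13.7 and 15.9 TPM, acetaminophen 9.97, 6.45 and 10.8 TPM, gentamicin 13.9, 16.9 and 17.6 TPM, and trichloroethylene 18.3, 17.6 and 17.8 TPM. The fall with acetaminophen at 6 h was -0.65 ± 0.24 (SE, edgeR adjusted p = 0.0271, 3 of 3 libraries below the controls). The call was lost without acetaminophen replicate 2 (-0.46), control replicate 2 (-0.74) or control replicate 3 (-0.55), and also with fragment length as a covariate (-0.56). The log2 change with gentamicin at 6 h was 0.00 ± 0.23 (edgeR adjusted p = 1). Acetaminophen lay below gentamicin by 0.65 ± 0.22 in log2 (edgeR adjusted p = 0.0132), a call lost without acetaminophen replicate 2 or gentamicin replicate 2. Counts of both gentamicin-high transcripts were not whole in the files, so reads were shared with other transcripts and their division by the authors' tool enters these values.

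**Figure D3:**
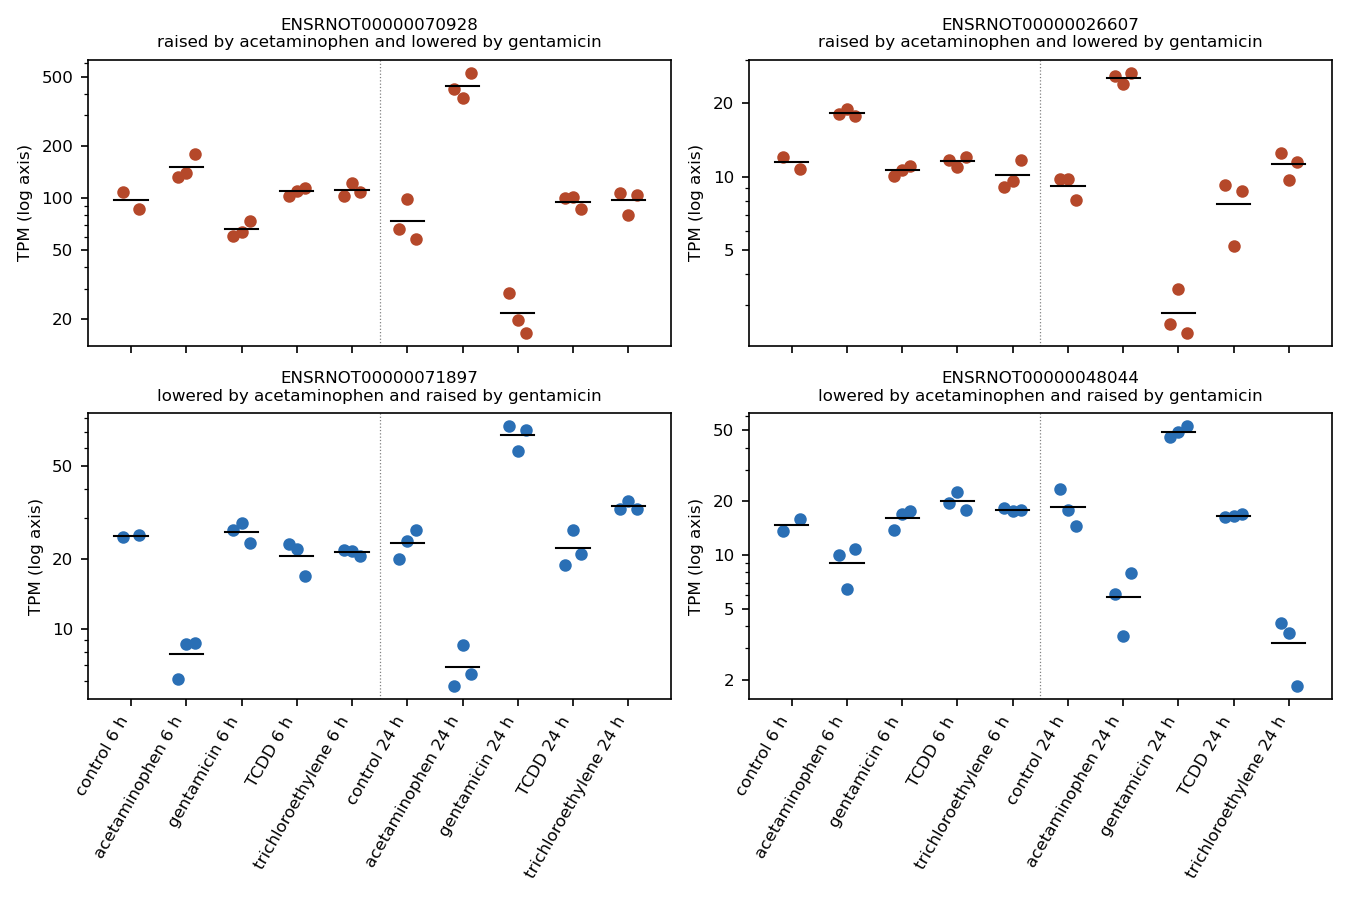
TPM on a log axis of the 4 named transcripts in each of the 29 libraries (points), by group, with lines at group means. Acetaminophen and gentamicin at 24 h lie on opposite sides of the 24 h controls in every panel, and trichloroethylene at 24 h has the lowest mean for ENSRNOT00000048044, at 1.84 to 4.15 TPM.

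Whether the opposition was present before 24 h was asked in the 6 h libraries, which the rule used only through the level of the controls. Of the members, 140 passed the count filter: all 101 of the acetaminophen-high set and 39 of the 41 of the other. With acetaminophen at 6 h, 72 of the 101 acetaminophen-high members rose (71.3%), where 24.2% of all 15990 tested transcripts did. Another 3 fell, and 83 had all 3 treated libraries above both controls in TPM (32.5% of all tested). Their median log2 change was 0.92, with a range of -1.80 to 2.43, beside -0.007 over all tested transcripts. Of the gentamicin-high set, 25 of 39 tested members fell with acetaminophen at 6 h (64.1%, beside 24.5% of all tested) and none rose by edgeR's test. There 28 of 39 lay below both controls in every library (38.9% of all tested), and the median log2 change was -0.86.

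Gentamicin had moved far fewer members by 6 h. In the acetaminophen-high set, 19 of 101 fell (18.8%, beside 4.88% of all tested) and none rose, with a median log2 change of -0.25. In the gentamicin-high set, 7 of 39 rose (17.9%, beside 8.34% of all tested) and 1 fell, with a median of 0.18. The counts moved with single libraries, and so did those of all tested transcripts. The count of 19 became 6 without control replicate 2 (1.71% of all tested fell) and 7 without control replicate 3 (1.89%). It became 10 without gentamicin replicate 2 (3.42%) and 8 without gentamicin replicate 3 (3.44%). The count of 7 became 4 without either control, where 3.64% and 4.06% of all tested rose. By limma on log2(TPM + 1), a scale with a median change of 0.09 over all tested transcripts, 5 members of the acetaminophen-high set fell and 1 rose (2.05% and 8.49% of all tested). With fragment length as a covariate, edgeR called 31 lower and 2 higher (8.19% and 11.5% of all tested). All libraries of gentamicin at 6 h lay below both controls in 37 members of the acetaminophen-high set (13.4% of all tested). They lay above both controls in 21 of the gentamicin-high set (34.9% of all tested).

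**Figure D4:**
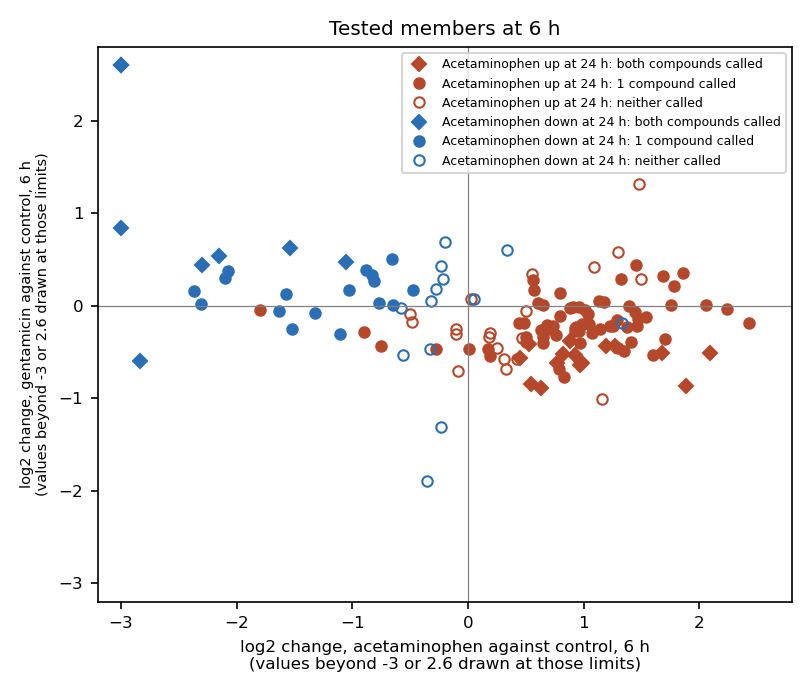
log2 change at 6 h with acetaminophen (horizontal axis) and gentamicin (vertical axis) for 139 tested members with a value for both, each point 1 transcript coloured by set, open where neither compound gave a call, and with values beyond the limits named on the axes drawn at those limits. Most acetaminophen-high members lie right of 0 and most gentamicin-high members left of 0, with medians of 0.92 and -0.86, while the spread along the gentamicin axis is smaller.

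The compounds were also set against each other directly at 6 h, without the controls. Acetaminophen was above gentamicin in 84 of 101 acetaminophen-high members (83.2%, beside 26.1% of all tested) and below it in 2. The median difference in log2 was 1.08. For the gentamicin-high set, acetaminophen was below gentamicin in 27 of 39 (69.2%, beside 28.3% of all tested) and above it in none by edgeR's test, with a median of -1.17. In TPM, all acetaminophen libraries lay above all gentamicin libraries for 83 acetaminophen-high members (24.3% of all tested). They lay below for 30 gentamicin-high members (40.8% of all tested). The members found with centred L gave like shares: 41 of 45 tested (91.1%) and 38 of 54 (70.4%).

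**Figure D5:**
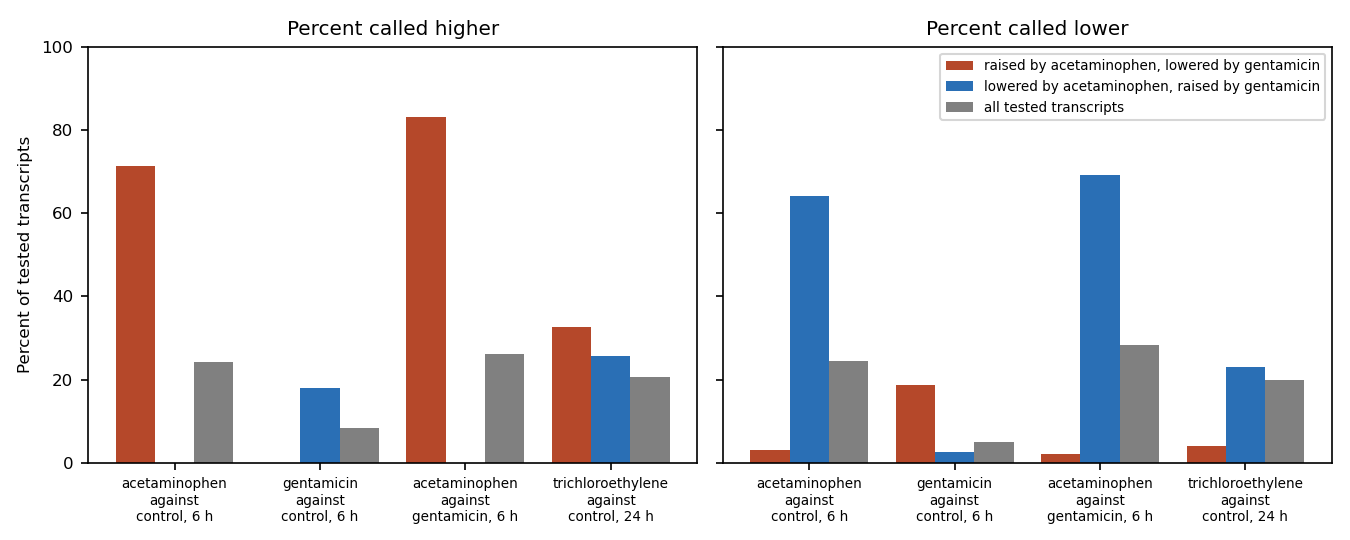
Percent of tested transcripts called higher (left) or lower (right) by edgeR's test at an adjusted p under 0.05, for the 101 acetaminophen-high members, the 39 tested gentamicin-high members and all 15990 tested transcripts (bars), in 4 comparisons. With acetaminophen at 6 h, 71.3% of the acetaminophen-high set were called higher beside 24.2% of all tested transcripts.

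By their calls at 6 h the members fell into unequal classes. The share of all tested transcripts in each class is not given here, so the class sizes are a description of the members. In the acetaminophen-high set, 57 of 101 had risen with acetaminophen and gave no call with gentamicin, and their median log2 changes were 1.03 and -0.19. A further 15 had risen with acetaminophen and fallen with gentamicin, with medians of 0.92 and -0.53, and these were more abundant than the rest of the calls with acetaminophen, at a median of 24.2 against 11.2 TPM in the 6 h controls. Only gentamicin gave a call in 4 members, and neither compound in 22, whose median control level was 6.57 TPM. The 3 members that had fallen with acetaminophen at 6 h changed by -1.80 to -0.75 in log2. At 24 h the same 3 stood above control, with a median L of 1.02.

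Among the 39 tested gentamicin-high members, 17 had fallen with acetaminophen alone at 6 h, with a median log2 change of -1.11 beside 0.16 with gentamicin. Another 7 had changed with both compounds in the directions of 24 h, with medians of -2.30 and 0.63, and 14 with neither. The remaining member had fallen with both compounds at 6 h, by 2.84 and 0.59 in log2, and at 24 h had an L of -1.68 with acetaminophen and 0.81 with gentamicin. The classes rest on calls, and precision differed with depth. Of the 87 acetaminophen-high members with a mean of 50 counts or more over all libraries, 68 rose with acetaminophen at 6 h, and of the 14 with fewer, 4 did. Of 29 and 10 gentamicin-high members, 22 and 3 fell. The median SE of that log2 change was 0.16 and 0.45 in the first set and 0.16 and 0.57 in the second.

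Sizes at 6 h and 24 h were set side by side. For acetaminophen, the fitted log2 change at 6 h was at least as large as that at 24 h, with the same sign, in 38 of 101 acetaminophen-high members and 12 of 39 gentamicin-high members. For gentamicin this held in 1 of 101 and 2 of 39. The sign at 6 h was opposite to that at 24 h in 9 and 4 members for acetaminophen and in 21 and 11 for gentamicin. Members were chosen on their 24 h values, which favours larger changes at 24 h for both compounds. The difference between the times was therefore not tested. The same counts of size and sign over all tested transcripts are not given here, so they are not read as particular to the members. As for calls, 48.8% of all tested transcripts were called with acetaminophen at 6 h and 13.2% with gentamicin.

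Trichloroethylene at 24 h, which the rule did not use, was compared with the 24 h controls, which it did use. In the acetaminophen-high set, 33 of 101 members rose (32.7%, beside 20.7% of all tested) and 4 fell (3.96%, beside 19.9%). The median log2 change was 0.26 beside 0.01 over all tested transcripts. The 33 that rose changed by 0.28 to 1.30 in log2 and 3 of them by more than 2-fold. With total counts in place of TMM factors, 42 rose and 2 fell, where 26% of all tested transcripts rose, 15% fell and their median was 0.11. In the 45 tested members of this direction chosen with centred L, 9 changed (20%, beside 40.7% of all tested) and the median was -0.09.

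In the gentamicin-high set trichloroethylene at 24 h gave no common direction: 10 of 39 members rose (25.6%) and 9 fell (23.1%), shares near those of all tested transcripts. The split was 12 and 6 with total counts (26% and 15% of all tested) and 11 and 6 by limma on log2(TPM + 1) (21.8% and 16.1%). The falls reached further, to -2.55 in log2, and 4 of the 9 exceeded 2-fold against 1 of the 10 rises. The deepest fall was that of ENSRNOT00000048044, named above, at -2.55 ± 0.25 in log2 (SE, 3 of 3 libraries below the controls, edgeR adjusted p = 1.5e-08). With trichloroethylene at 24 h, ENSRNOT00000071897 stood at 32.7, 35.4 and 32.6 TPM, above all 3 controls, and at 21.8, 21.7 and 20.6 TPM at 6 h. Its rise at 24 h was 0.50 ± 0.20 (adjusted p = 0.0496, 3 of 3 above). That call was lost without control replicate 1 or 2 or any 1 of the trichloroethylene libraries (0.38 to 0.64 over all libraries left out). With the fragment length covariate the change was 0.15 (adjusted p = 0.655).

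Trichloroethylene at 24 h had 107, 80.3 and 105 TPM of ENSRNOT00000070928 and 12.5, 9.75 and 11.5 TPM of ENSRNOT00000026607, so that 1 library of each lay within the range of its controls. ENSRNOT00000070928 rose with trichloroethylene at 24 h by 0.47 ± 0.18 in log2 (SE, edgeR adjusted p = 0.0343, 2 of 3 libraries above the controls). The call did not hold without control replicate 1 (0.37) or 3 (0.38) or without trichloroethylene replicate 1 (0.38) or 3 (0.43), nor by limma (0.41). With the fragment length covariate it did not hold either, though the change was about as large (0.45). For ENSRNOT00000026607 the log2 change was 0.26 ± 0.14 (adjusted p = 0.125), which passed with total counts (0.36, adjusted p = 0.0429). Libraries of trichloroethylene at 24 h had shorter fragments than the controls of that time, with 248.3 to 259 against 269.9 to 288.8 bases between transcript length and effective length. Those of TCDD at 24 h had 230.3 to 238.1 bases and those of acetaminophen at 24 h 232.7 to 274.7, and both groups chose the members. The part of fragment length in the choice of members was not tested.

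At 6 h no change of a member with TCDD or trichloroethylene was detectable in the fit over all groups, which had 2 controls of that time. By edgeR's test 0 of the 140 tested members passed for either compound, as for 0% of all tested transcripts. At an unadjusted p under 0.05 there were 12 for TCDD and 14 for trichloroethylene, or 8.57% and 10% of the members beside 7.03% and 12.9% of all tested transcripts. DESeq2 and limma on log2(TPM + 1) also called 0 members for both. Of all tested transcripts, DESeq2 called 0.0375% for TCDD and 0.138% for trichloroethylene, and limma 0% and 0.05%. When only the groups compared entered the edgeR fit, 5 members passed for trichloroethylene, 4 of them in the acetaminophen-high set, and 0 for TCDD. For trichloroethylene, 3.22% of all transcripts tested passed in that fit. The median log2 changes with TCDD were -0.05 and 0.07 in the acetaminophen-high and gentamicin-high sets, and -0.09 and -0.12 with trichloroethylene.

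TCDD at 24 h stayed near control in the members by the rule, and this holds on the TPM scale. ENSRNOT00000048044 had 16.4, 16.5 and 16.9 TPM with TCDD at 24 h, and ENSRNOT00000070928 had 99.6, 101 and 86.1 TPM, a log2 change of 1.02 ± 0.17 (SE) in the count model. In the count model, which sets the bulk of transcripts as unchanged, the members stood above control. Their median log2 change was 0.42 in the acetaminophen-high set and 0.50 in the gentamicin-high set, with 50 of 101 and 20 of 39 called higher and none lower (33.9% of all tested were higher and 33% lower). The rule used this contrast, so nothing is read from these shares. The rule also required the changes with acetaminophen and gentamicin at 24 h, so their calls in the same model are no test either. Acetaminophen at 24 h was called higher in 92 of 101 acetaminophen-high members (30.3% of all tested). It was called lower in 35 of 39 gentamicin-high members (29.2%). Gentamicin was called lower in 96 of 101 (30.5%) and higher in 34 of 39 (29.1%). In controls alone, 28 acetaminophen-high members were lower at 24 h than at 6 h (12.6% of all tested) and 7 were higher (12.3%). In the gentamicin-high set 3 were lower and 2 higher. The 24 h controls entered every L that chose the members, so nothing is read from these counts.

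Within the window of control levels that the rule set, the median control level of the members was 12 TPM, from 1.03 to 297 TPM, beside 17.3 TPM over the 13456 tested transcripts in the same window of levels. Their median length was 1707.5 bases, from 138 to 10344, beside 1990 bases. Transcripts shorter than 1000 bases made up 18.8% of the acetaminophen-high set, 26.8% of the gentamicin-high set and 15.9% of the tested transcripts in the window. The gentamicin-high share is 11 of all 41 members, and 9 of the 39 tested members were that short. Levels, lengths and shares of members here include those that did not pass the count filter. In the acetaminophen-high set, the 19 short members and the 82 longer ones had median log2 changes with acetaminophen at 6 h of 0.77 and 0.92. In the gentamicin-high set the 9 short tested members had a median of -0.47, and the 30 longer ones -0.96. With gentamicin at 6 h the medians of short and longer members were -0.255 and -0.234 in the acetaminophen-high set. In the gentamicin-high set they were -0.105 and 0.178, so the short members had a median against their 24 h direction. Counts more than 1e-06 from a whole number in at least 1 library, a sign that reads were shared between transcripts, occurred in 32 of 101 and 19 of 41 members, or 31.7% and 46.3%, beside 38.3% of the tested transcripts in the window.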

How the data were processed

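Transcripts were quantified by the authors with kallisto 0.43, per the submitters' processing notes. The deposited estimated counts (expected counts, not always whole) and the deposited TPM are the authors' values per transcript, per the file headers, and so are the length and effective length. Which annotation release was used, whether reads were trimmed and how strand was treated are not stated in the sources at hand. In the RefSeq table at hand 0 genes carried an Ensembl identifier, so the gene lists planned for named genes were not used.

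Members came from group means of TPM. Counts were rounded and filtered with filterByExpr (minimum count 10), leaving 15990 of 28420 transcripts and 99.95% of counts. One edgeR 4.0.16 quasi-likelihood model (R 4.3.3, TMM factors, robust dispersion, 10 groups, 19 residual degrees of freedom) gave all tests, with Benjamini-Hochberg adjustment over all transcripts tested. The SE is the log2 change divided by the square root of F. A group without counts was set at 3 counts in each library, which bounds the change in medians and ranges, and a change between groups both at or under that floor was left out. Named transcripts are the 2 in each direction with at least 10 counts in all 29 libraries and the largest smaller response at 24 h. The members, lists and tests were chosen with earlier results of these data known. The edgeR fit was tested on simulated counts with changes planted in acetaminophen at 6 h alone, and the outcome is not given here. The split of members at a mean of 50 counts was chosen after seeing the data.

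Alternatives were DESeq2 1.42.0, median-of-ratios factors, total counts, no filter, 10 CPM in 3 libraries, a replicate block, only the compared groups, limma 3.58.1 on log2(TPM + 1), a fragment length covariate, non-robust dispersion, other rule settings and leaving out each library. Replicates were not duplicates: a chi-square of their counts gave 2.98 to 28.3 per degree of freedom.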

Additional observations from a re-analysis of the deposited data

Results flagged for a closer look

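For trichloroethylene, the change at 24 h was set against the change at 6 h by an interaction contrast in the edgeR model, adjusted over all transcripts tested, with the 24 h controls shared with the rule that chose the members. The difference passed for 3 of the 4 named transcripts. The share of all tested transcripts that passed this contrast is not given here, so the count is not read as particular to the members. Against control, 40.7% of all tested transcripts were called with trichloroethylene at 24 h and 0% at 6 h. The difference was -2.68 ± 0.35 in log2 for ENSRNOT00000048044 (SE, edgeR adjusted p = 3.5e-06). This transcript stood at 17.6 to 18.3 TPM at 6 h and at 1.84 to 4.15 TPM at 24 h. It was 0.88 ± 0.30 for ENSRNOT00000071897 (adjusted p = 0.028) and 0.57 ± 0.20 for ENSRNOT00000026607 (adjusted p = 0.0323). For ENSRNOT00000070928 it was 0.46 ± 0.26 (adjusted p = 0.172). Fits without single libraries were not run for these differences.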

How the results depend on the processing

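With the threshold of the rule at 0.7 in place of 0.8, 171 transcripts entered the acetaminophen-high set. At a threshold of 1, 31 and 19 entered the 2 sets. TMM-scaled counts gave 65 and 51, and centred L gave 46 and 56. Without single 24 h libraries the sets held 88 to 121 and 34 to 47 members. With centred L, 45 acetaminophen-high members were tested. Of these, 34 were called with acetaminophen at 6 h (75.6%) and 11 with gentamicin at 6 h (24.4%). Between the compounds at 6 h 41 were called (91.1%), and with trichloroethylene at 24 h 9 (20%). By the rule as given the 6 h shares of 101 were 71.3%, 18.8% and 83.2%, beside 24.2%, 4.88% and 26.1% of all tested. With trichloroethylene at 24 h, 32.7% of the 101 rose and 3.96% fell, beside 20.7% and 19.9% of all tested. The count of 19 acetaminophen-high members lowered by gentamicin at 6 h was 31 with the fragment length covariate and 5 by limma on log2(TPM + 1). It ran from 6 to 15 without single libraries, and the gentamicin-high count of 7 from 4 to 7. With only the compared groups, 4 and 1 members passed for trichloroethylene at 6 h. The other counts in the directions of 24 h, and the trichloroethylene calls of both directions together, stayed within 1.5 times under every alternative run. Small counts split by direction moved more. The 4 acetaminophen-high members that fell with trichloroethylene at 24 h were 2 with total counts, no filter, the replicate block or only the compared groups. With only the compared groups, the 9 gentamicin-high falls were 5, and the 3 acetaminophen-high falls with acetaminophen at 6 h were 5. The 2 acetaminophen-high members with acetaminophen below gentamicin at 6 h were 1 under several of the settings. With acetaminophen at 6 h, single libraries left out gave 62 to 69 and 22 to 26, and between the compounds 80 to 83 and 24 to 27. With trichloroethylene at 24 h, the calls of both directions together, 37 and 19 with all libraries, ran from 25 to 34 and from 14 to 19. Where 1 control was left, its variation was taken from the other groups. Pairing by replicate number was not detected, with correlations of -0.036 to 0.084 between same-numbered libraries. Pairs with different numbers were not set beside them, so pairing is not excluded. A replicate block gave 73 and 25 calls with acetaminophen at 6 h, and 17 and 7 with gentamicin. Of 248 values of the 4 named transcripts under alternatives, 23 lost and 1 gained a call, and none of the called values changed sign. Members with a mean under 50 counts had the larger median SE, and the part of depth in their calls was not tested.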
